A study of Danio rerio with 7 samples.

Results

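The genes described here encode the cytosolic nucleic acid sensing pathway, which detects DNA or RNA in the cytoplasm and leads to the induction of interferon. They were chosen by name, as parts of 1 pathway, from a list of 10 zebrafish symbols written with earlier results of these data known: cgasa, cgasb, sting1, tbk1, mavs, irf3, irf7, rigi, ifih1 and dhx58. Of the 32105 genes in the deposited table, 8 were matched to these names, and 7 of the 8 passed the filter on low counts and were tested. A separate names table pairs 1 ID (ENSDARG00000021572) with the symbol CGAS and gives no paralog suffix. Thus cgasa and cgasb are not resolved, and the row is called CGAS here. No ID carried the symbol rigi or its older symbol ddx58, and that gene is not analysed here. Symbols are written below as the names table gives them, several of them in capitals.

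In this pathway, cGAS binds double-stranded DNA and makes a cyclic dinucleotide, which activates the adaptor STING on the endoplasmic reticulum. RIG-I and MDA5 (the product of IFIH1) are helicases that bind viral or misplaced RNA and signal through MAVS, an adaptor on mitochondria, while LGP2 (the product of DHX58) lacks their signalling domain and modulates them. Both arms meet at the kinase TBK1, which phosphorylates IRF3 and IRF7, the transcription factors of type I interferon genes. DDX41 itself has been described in mammalian cells as a sensor of DNA upstream of STING, in addition to its role in splicing.

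Polyadenylated RNA was sequenced from gata1-positive erythroid cells isolated from zebrafish embryos at 40 hours post fertilization. The groups were 4 libraries of sibling embryos (replicates 1, 3, 4 and 5) and 3 libraries of ddx41 mutant embryos (replicates 2, 3 and 4). Both groups share the selection for gata1, which encodes a factor needed to form red cells. The deposited counts of both groups carry the name gata1dsred, which points to a dsRed reporter of gata1 that the sample titles do not name. The labels do not name the mutant allele, the genotypes among the siblings or the number of embryos in a library, and p-values therefore reflect only how these libraries vary, which may be technical.

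Totals ran from 11814324 to 14363255 counts, so that 1 count corresponded to 0.0635 to 0.0833 CPM (counts scaled to library size, after TMM scaling). Erythroid markers were present as labelled: 28 of 30 matched IDs had a count in every library, and gata1a stood at 652.4 ± 142 CPM in siblings (SD, n = 4) and 464.1 ± 180 CPM in mutants (SD, n = 3), with an edgeR adjusted p of 0.242. No check of the labels against the ddx41 transcript was made, which was not analysed here. In these bulk libraries, fewer cells of a type and less RNA per cell cannot be told apart.

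Mutants were compared with siblings to ask which of these transcripts change in red cells when ddx41 is mutated. TBK1, IRF7 and DHX58 were lower in the mutants, and no member was called higher. Each of these 3 calls was lost when certain single libraries were left out. All 3 were lost in a fit that joined libraries by replicate number. CGAS and STING1, which define the DNA-sensing arm, were close to the limit of detection in both groups. The RNA-sensing adaptor mavs was the only tested member with a positive fitted change, and it did not pass the test. By the quasi-likelihood test of edgeR, with p adjusted by Benjamini and Hochberg over all 18565 tested genes, 3 of the 7 tested members were called lower and 0 higher. Among these 3, DHX58 passed the filter on low counts through the siblings alone. Of all tested genes, 7.69% were called lower, 8.87% higher and 16.6% in either direction. Groups that did not overlap were found at the same 3 members and at 27.5% of all tested genes. The 7 members had a median log2 fold change of -0.95, against 0.04 over all tested genes.

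**Figure D1:**
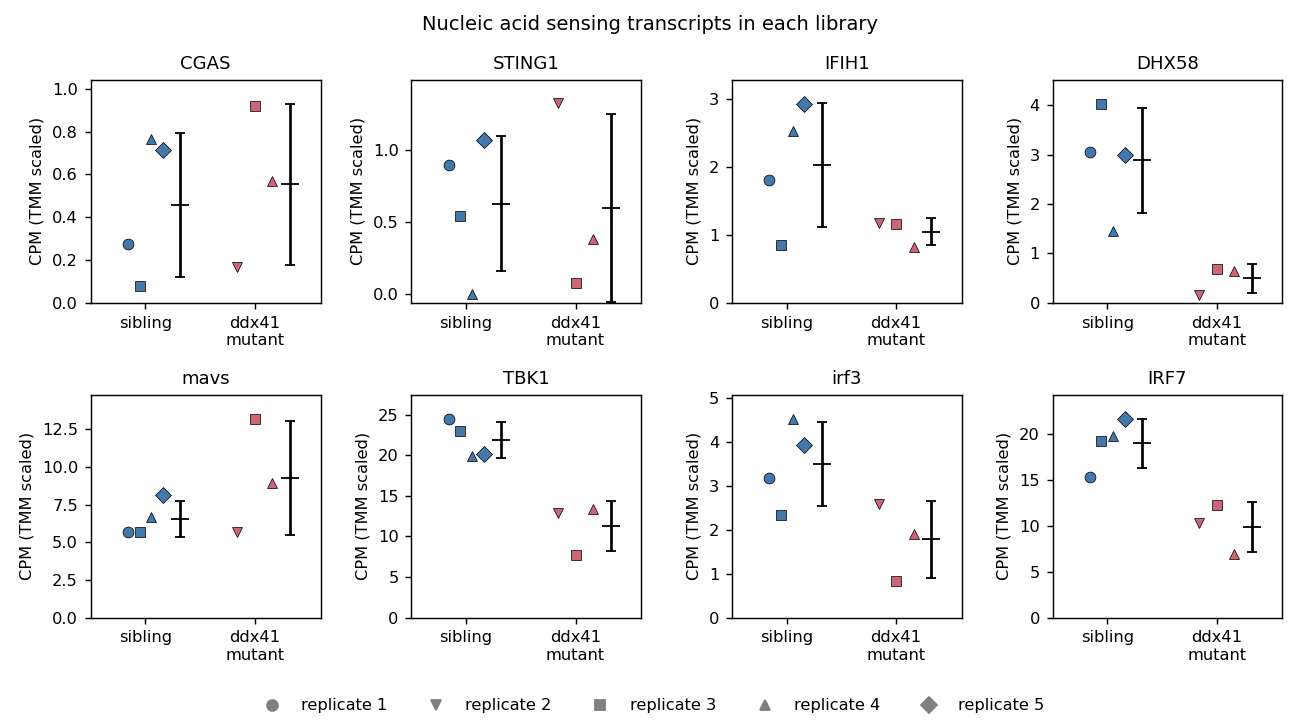
CPM (vertical axes, each with its own scale) of the 8 nucleic acid sensing genes in 4 sibling and 3 ddx41 mutant libraries. Each point is 1 library, its shape gives the replicate number, and the bar to the right of each group is the mean with its SD. The groups are separate for TBK1, IRF7 and DHX58 and overlap for the other 5 genes.

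The DNA sensor CGAS had 4, 1, 10 and 10 counts in sibling replicates 1, 3, 4 and 5, and 2, 12 and 9 counts in ddx41 mutant replicates 2, 3 and 4. In CPM these were means of 0.459 ± 0.336 (SD, 4 siblings) and 0.553 ± 0.378 (SD, 3 mutants). The groups overlapped, and the lowest library of all was a sibling. CGAS did not pass the filter on low counts, and an exact permutation test over the 35 possible assignments of the 7 libraries gave p = 0.714 (two-sided). When edgeR was run without the filter, its log2 fold change was 0.25, and its adjusted p was 0.921.

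STING1 (ENSDARG00000091058), the adaptor that receives the cGAS signal, had 13, 7, 0 and 15 counts in sibling replicates 1, 3, 4 and 5. In ddx41 mutant replicates 2, 3 and 4 it had 16, 1 and 6 counts. The highest library was a mutant and the lowest was a sibling without any count, where 0 counts allow a level of up to 0.230 CPM. The fitted log2 fold change was -0.10, with a 95% interval from -2.39 to 2.196 (edgeR adjusted p = 0.965), and its sign turned without ddx41 mutant replicate 3 (0.39) or replicate 4 (0.15). Without sibling replicate 1 or 5 it did not pass the filter and was not fitted. The interval spans 0 widely, so at this depth the counts do not settle whether STING1 rose or fell, or by how much.

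IFIH1 (ENSDARG00000018553), the gene of the long double-stranded RNA sensor MDA5, had 1.80, 0.853, 2.53 and 2.93 CPM in sibling replicates 1, 3, 4 and 5. The mutants had 1.17, 1.15 and 0.825 CPM in replicates 2, 3 and 4. Every mutant lay below 3 of the siblings, but sibling replicate 3 lay between the mutants. The log2 fold change of -0.95 had a 95% interval from -2.32 to 0.42 and an edgeR adjusted p of 0.351.

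DHX58 (ENSDARG00000089463), the gene of LGP2, had 3.05, 4.03, 1.46 and 2.998 CPM in sibling replicates 1, 3, 4 and 5. In ddx41 mutant replicates 2, 3 and 4 it had 0.167, 0.691 and 0.635 CPM, which were 2, 9 and 10 counts. All mutants lay below the lowest sibling, which was replicate 4. DHX58 was 5.65-fold lower in the mutants, with a log2 fold change of -2.50, a standard error of 0.69 and an edgeR adjusted p of 0.0221. It passed the filter on low counts through the siblings alone, which had 44, 52, 19 and 42 counts. Had the siblings been as low as the mutants, DHX58 would not have been tested. DHX58 had the largest fitted change of the 7 tested members, and its low counts gave it a 95% interval from -3.96 to -1.03. Leaving out sibling replicate 3 gave an adjusted p of 0.0595 and leaving out ddx41 mutant replicate 2 gave 0.0820, in a range from 0.0195 to 0.0820 over the 7 libraries left out in turn.

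The adaptor mavs (ENSDARG00000069733) had 5.68, 5.66, 6.67 and 8.14 CPM in sibling replicates 1, 3, 4 and 5. In ddx41 mutant replicates 2, 3 and 4 it had 5.67, 13.2 and 8.95 CPM. Replicates 3 and 4 of the mutants lay above every sibling, and replicate 2 lay among the lowest siblings. The log2 fold change of 0.50 had a 95% interval from -0.22 to 1.23 and an edgeR adjusted p of 0.351. It was 0.12 without ddx41 mutant replicate 3.

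TBK1 (ENSDARG00000103095), the kinase shared by both arms, had 24.5, 22.9, 19.9 and 20.1 CPM in sibling replicates 1, 3, 4 and 5. In ddx41 mutant replicates 2, 3 and 4 it had 12.8, 7.75 and 13.3 CPM. The siblings lay close together, and every mutant lay below all of them. TBK1 was 1.93-fold lower in the mutants, with a log2 fold change of -0.95, a standard error of 0.26 and an edgeR adjusted p of 0.0198. Leaving out sibling replicate 1 gave an adjusted p of 0.0557 and leaving out ddx41 mutant replicate 3 gave 0.0524, in a range from 0.0187 to 0.0557 over the libraries left out in turn.

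Of the transcription factors that TBK1 phosphorylates, IRF7 (ENSDARG00000045661) had 15.3, 19.1, 19.7 and 21.6 CPM in sibling replicates 1, 3, 4 and 5. In ddx41 mutant replicates 2, 3 and 4 it had 10.3, 12.3 and 6.92 CPM. The highest mutant lay below the lowest sibling. IRF7 was 1.93-fold lower, with a log2 fold change of -0.95, a standard error of 0.27 and an edgeR adjusted p of 0.0267. The call was lost without sibling replicate 3, 4 or 5 (adjusted p 0.0563, 0.0610 and 0.0670) or ddx41 mutant replicate 2 or 4 (0.0699 and 0.0833), and the log2 fold change kept between -1.17 and -0.74.

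The paralog irf3 (ENSDARG00000076251), the factor usually active before IRF7 is induced, had 3.18, 2.33, 4.53 and 3.93 CPM in sibling replicates 1, 3, 4 and 5. In ddx41 mutant replicates 2, 3 and 4 it had 2.58, 0.844 and 1.90 CPM. The groups overlapped through ddx41 mutant replicate 2, which lay above sibling replicate 3. The log2 fold change of -0.97 had a 95% interval from -2.09 to 0.15 and an edgeR adjusted p of 0.235. Its fitted change was close in size to those of TBK1 and IRF7, and its interval was wider.

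**Figure D2:**
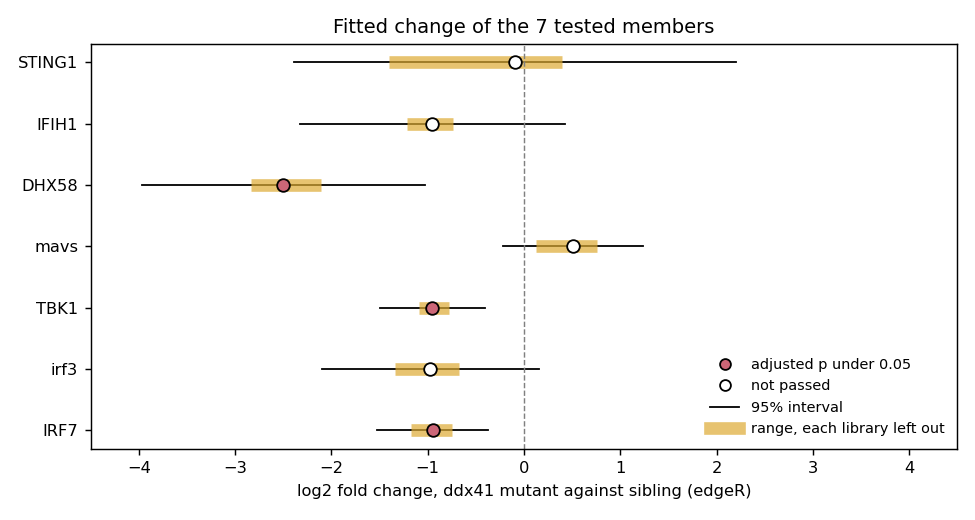
Fitted log2 fold change of each of the 7 tested members (horizontal axis, mutant against sibling). Points are edgeR estimates, filled where the adjusted p was under 0.05, thin lines are 95% intervals, and thick bars span the estimates with 1 library left out. For STING1 the bar covers 5 of the 7 such fits, since the gene did not pass the filter without sibling replicate 1 or 5. The bar of STING1 crosses 0, those of the other 6 members do not, and mavs alone lies to the right.

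Ratios of counts within a library do not depend on how libraries are scaled, and they were compared for the 6 members with a count in every library, which gives 15 pairs. This comparison was chosen after the values above were seen. The log2 ratio of mavs to TBK1 was -1.75 ± 0.38 (SD, 4 siblings) and -0.33 ± 0.997 (SD, 3 mutants). That of mavs to IRF7 was -1.54 ± 0.16 and -0.13 ± 0.65, and that of mavs to DHX58 was 1.26 ± 0.74 and 4.39 ± 0.64. In all 3 ratios every mutant lay above every sibling, and the exact two-sided permutation p was 0.0286, the smallest that 35 assignments can give. With an adjusted p of 0.143 over the 15 pairs, none passed. A fully separated pair could not have passed on its own, because the smallest possible p is too large for 15 pairs. The adjusted p therefore does not decide whether these ratios differ. The ratio of TBK1 to IRF7 differed by -0.02 between the groups (exact permutation p = 1), with an SD of 0.35 among siblings and 0.81 among mutants. The ratio of TBK1 to irf3 differed by 0.09 (exact permutation p = 0.857).

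**Figure D3:**
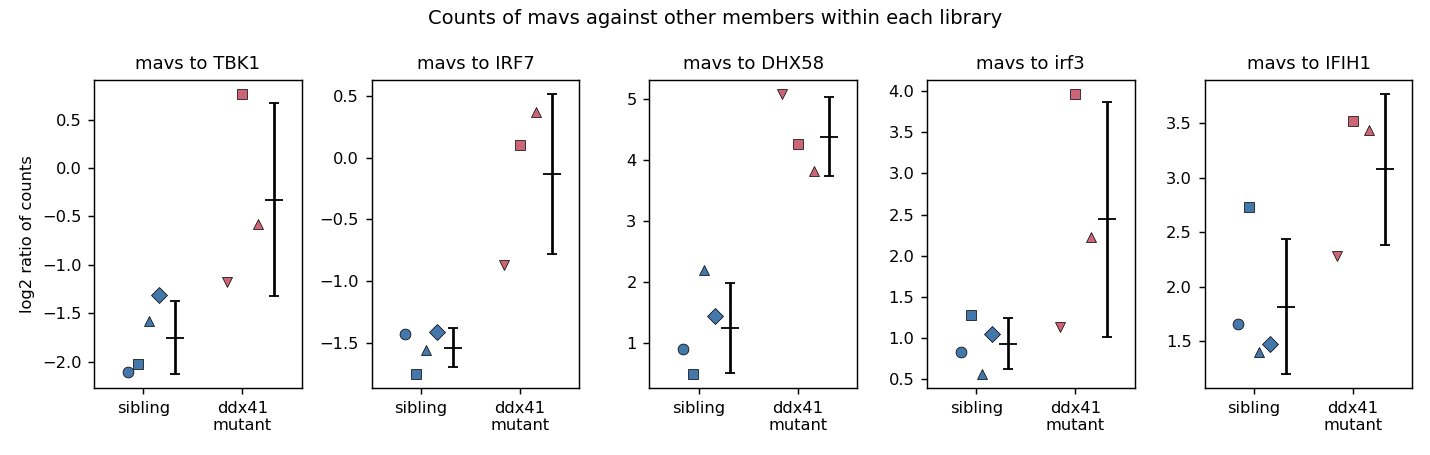
Log2 ratio of mavs counts to the counts of 5 other members within each library (vertical axes, each with its own scale), for 4 sibling and 3 ddx41 mutant libraries. Each point is 1 library and the bar is the mean with its SD. The groups are separate for TBK1, IRF7 and DHX58, and the highest mutant is replicate 3 for TBK1, irf3 and IFIH1.

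For each of the 3 called members, the genes with the most similar pattern over the 7 libraries were found by the root mean square difference of log2(CPM + 0.5), centred on each gene's mean. They were dnmt3bb.2 (0.0924) and SLC7A1 (0.0957) for TBK1, eps8l3a (0.0485) and FKBP1B (0.0925) for IRF7, and TMEM218 (0.221) and srr (0.258) for DHX58. The gene closest to IRF7, eps8l3a, stood at 113.1 ± 18.2 CPM in siblings (SD, n = 4) and 60.7 ± 16.6 CPM in mutants (SD, n = 3). FKBP1B was low, at 1.18 ± 0.189 and 0.488 ± 0.263 CPM, and did not pass (edgeR adjusted p = 0.295). At that level the 0.5 added to CPM narrows its log2 differences. None of the 6 belongs to the gene lists used here.

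Cells other than red cells could carry transcripts of these genes, since the pathway is active in leukocytes. Of 38 matched IDs of macrophage and leukocyte markers, 32 had a count in every library and 33 were tested. Of those tested, 9 fell and 1 rose, or 30.3% called against 16.6% of all tested genes. Their summed level ran from 1674 to 2636 CPM in siblings and from 970.6 to 1855 CPM in mutants, so the groups overlapped. Among the defining macrophage genes, MFAP4 (ENSDARG00000088745, 1 of 6 IDs with that symbol) was 5.81-fold lower (edgeR adjusted p = 0.000809). Another MFAP4 ID (ENSDARG00000038681) had 48 counts in all, below the filter. Without the filter its log2 fold change was -0.38 (edgeR adjusted p = 0.881). The remaining MFAP4 IDs are not described here, so these values do not speak for the symbol as a whole. The chemokine gene ccl34b.1 was 43.7-fold lower (edgeR adjusted p = 2.72e-06), and it passed the filter on low counts through the siblings alone. The leukocyte actin regulator CORO1A was at 165.5 ± 19.4 CPM in siblings (SD, n = 4) and 145.8 ± 44.7 CPM in mutants (SD, n = 3). The part of these cells in the lower TBK1, IRF7 and DHX58 was not tested. The marker sum was 1266, 970.6 and 1855 CPM in ddx41 mutant replicates 2, 3 and 4, and 2636, 1894, 1674 and 1866 CPM in sibling replicates 1, 3, 4 and 5.

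**Figure D4:**
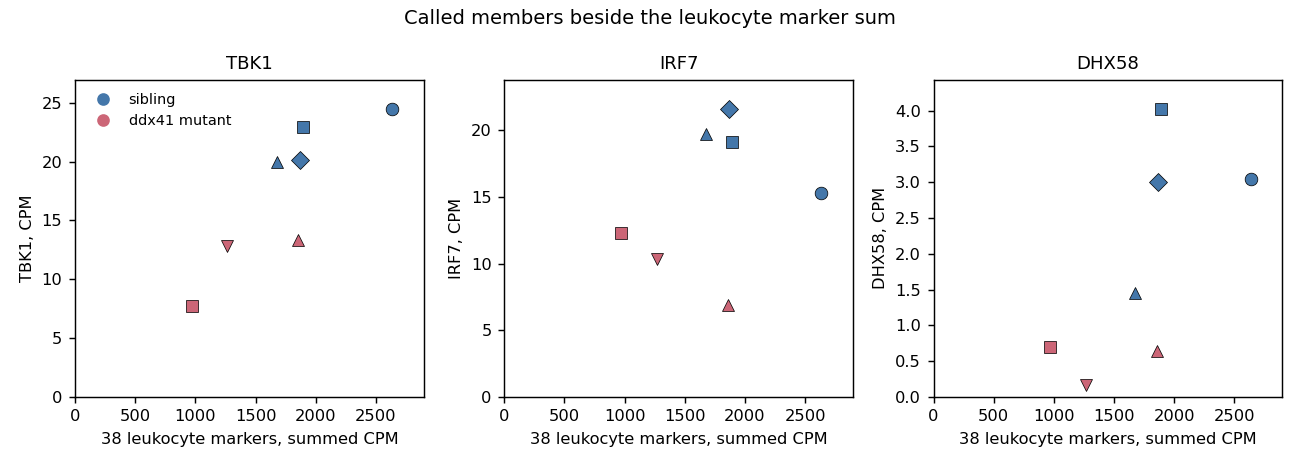
CPM of TBK1, IRF7 and DHX58 (vertical axes) against the summed CPM of 38 macrophage and leukocyte marker IDs (horizontal axis) in 4 sibling and 3 ddx41 mutant libraries, with 1 point per library. The groups overlap on the horizontal axis, where siblings run from 1674 to 2636 CPM and mutants from 970.6 to 1855 CPM, and are separate on each vertical axis.

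Other marker lists were summed in the same way. The shares called stand beside the 16.6% called among all tested genes. They were 45.5% for neutrophil, 33.3% for thrombocyte, 56.2% for skeletal muscle and 28.6% for erythroid markers. For endothelial markers the share was 17.6%, near that of all tested genes, and for neural markers it was 7.14%, below it. Neutrophil markers ran from 2007 to 3526 CPM in siblings and from 2115 to 3858 CPM in mutants, with the lysozyme gene lyz the most abundant at 2137 ± 529 and 1549 ± 490 CPM, npsn next, and VAMP8 2.35-fold higher in mutants (edgeR adjusted p = 0.0024); 5 of 11 rose and none fell. Endothelial markers ran from 76.9 to 114.0 and from 103.7 to 226.3 CPM, and 3 of 17 rose, led by the scavenger receptor gene stab2 (8.69-fold). The next most abundant, stab1, did not pass (edgeR adjusted p = 0.109). Thrombocyte markers ran from 846.5 to 1079 and from 610.9 to 826.6 CPM without overlap, with 2 of 9 lower and 1 higher, the coagulation gene f5 (5.21-fold). GFI1B, the most abundant, was 2.05-fold lower, at 481.3 ± 62.6 CPM in siblings (SD, n = 4) and 234.8 ± 85.5 CPM in mutants (SD, n = 3). The means of the sum were 919.7 and 716.9 CPM, a smaller fall than that of GFI1B itself. The other thrombocyte markers together therefore did not fall, but they include f5, whose mean was 34.6 CPM among siblings and 180.0 CPM among mutants. That rise can hide a fall in the remaining markers. Of the 9 tested, 6 had a negative fitted change and 3 a positive one, with a median log2 fold change of -0.15. Sums without both GFI1B and f5 were not compared. GP1BB, the next most abundant after GFI1B, was at 165.5 ± 11.3 and 143.2 ± 47.5 CPM and did not pass (edgeR adjusted p = 0.576). Skeletal muscle markers ran from 114.5 to 208.6 and from 114.6 to 125.0 CPM, with 7 of 16 lower and 2 higher. Of these 16, 13 had a negative fitted change, and the median log2 fold change was -1.34. The most abundant, TPM2, did not pass (edgeR adjusted p = 0.271). Against the direction of most of the list, TTN (ENSDARG00000028213) was 2.43-fold higher (edgeR adjusted p = 0.00225). Neural markers ran from 152.7 to 344.6 and from 110.4 to 386.8 CPM, with 1 of 14 lower, an ID of FABP7. That FABP7 ID passed the filter on low counts through the siblings alone. ELAVL3 and tubb5, the most abundant, did not pass (edgeR adjusted p = 0.946 and 0.666). Erythroid markers, mostly globins such as hbae3, ran from 120227 to 167578 and from 54926 to 111467 CPM without overlap, with 5 of 28 lower and 3 higher. Of the most abundant, hbae3 was 2.01-fold lower (edgeR adjusted p = 0.0353) and hbbe3 did not pass (0.774). SLC4A1 was 3.77-fold higher (edgeR adjusted p = 0.000104). The part of the cells behind these marker lists in the members' values was not tested.

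Genes that act beside the sensing proteins were described through 8 lists, whose shares of called genes stand beside the 16.6% called among all tested genes. Among 33 tested partners of the cytosolic arms, 1 rose, 2 fell and 30 did not pass (median log2 fold change -0.01). The share called was 9.09%, below that of all tested genes. TAX1BP1 (ENSDARG00000098288, 1 of 2 IDs with that symbol), an autophagy adaptor that dampens MAVS signalling, was 3.57-fold lower, at 6.94 ± 1.16 CPM in siblings (SD, n = 4) and 1.94 ± 1.40 CPM in mutants (SD, n = 3; edgeR adjusted p = 0.0294). This ID passed the filter on low counts through the siblings alone. The other TAX1BP1 ID (ENSDARG00000056856) was more abundant, at 103.4 ± 8.87 CPM and 90.5 ± 11.01 CPM, and did not pass (edgeR adjusted p = 0.514). PCBP2, an RNA-binding protein that promotes MAVS degradation, was 1.51-fold lower, and MUL1, a mitochondrial ubiquitin ligase, was 1.98-fold higher. These 3 calls depended on single libraries: none of the list passed without sibling replicate 1 or 5 and 1 passed without sibling replicate 3 or ddx41 mutant replicate 2. IKBKE, the kinase most similar to TBK1, was at 9.48 ± 3.96 CPM in siblings (SD, n = 4) and 8.83 ± 0.478 CPM in mutants (SD, n = 3), with an edgeR adjusted p of 0.875; it was named after its values were seen.

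Of 29 tested genes of nucleases and other proteins that keep self DNA and RNA from the sensors, 4 rose, 3 fell and 22 did not pass (median log2 fold change -0.19). The share called was 24.1%, against 16.6% of all tested genes. The gene enpp1, whose product hydrolyses the cyclic dinucleotide made by cGAS, had 34.5, 30.7, 29.2 and 36.7 CPM in sibling replicates 1, 3, 4 and 5 and 8.08, 8.98 and 15.9 CPM in ddx41 mutant replicates 2, 3 and 4. It was 2.97-fold lower (edgeR adjusted p = 0.00104), and the groups were far apart. The DNase gene dnase1l4.1 rose 3.45-fold from 14.2 ± 4.74 CPM (SD, n = 4), and SUPV3L1, a mitochondrial RNA helicase, rose 2.49-fold. The lysosomal ribonuclease gene rnaset2 was 1.75-fold lower. Named after their values were seen, the other 3 were the RNase H2 subunit genes RNASEH2A (2.02-fold higher) and rnaseh2c (1.98-fold higher) and dnase2, a lysosomal DNase gene (2.07-fold lower). Without sibling replicate 5 or ddx41 mutant replicate 2, 3 of the list were called. Among the losses, rnaset2 had edgeR adjusted p of 0.0515 and 0.0797 in those fits, and SUPV3L1 had 0.0901 without ddx41 mutant replicate 2.

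A further list held other proteins, most of them reported to bind foreign or misplaced nucleic acid. Of its 32 tested genes, 4 rose and 8 fell (median log2 fold change -0.27), which is 37.5% called against 16.6% of all tested genes. Many of them have other roles. The splicing helicase gene DDX23 rose 5.98-fold, from 37.5 ± 4.82 CPM (SD, 4 siblings) to 224.1 ± 50.8 CPM (SD, 3 mutants), and DHX15, also a splicing helicase gene, rose 2.68-fold. The gene lrrfip1a rose 2.59-fold, and hmgb1a, which encodes a chromatin protein, was 2.49-fold lower, from 100.7 ± 7.01 to 40.4 ± 4.63 CPM. In that order, edgeR gave adjusted p of 1.16e-06, 0.000112, 0.000147 and 0.000248 for DDX23, DHX15, lrrfip1a and hmgb1a. Named after its values were seen, eif2ak2, the gene of the double-stranded RNA-activated kinase PKR, was 2.94-fold lower, from 23.4 ± 2.78 to 7.98 ± 1.66 CPM (edgeR adjusted p = 0.000809). Without sibling replicate 3, 7 of the list were called.

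Of 16 tested genes of the endosomal Toll-like receptor route, 1 rose and 5 fell (median log2 fold change -0.79), or 37.5% called against 16.6% of all tested genes. The receptor gene tlr21 had 7.06, 3.88, 5.83 and 11.8 CPM in sibling replicates 1, 3, 4 and 5, and 2.08, 0 and 0.635 CPM in ddx41 mutant replicates 2, 3 and 4. No mutant reached the lowest sibling, and the edgeR adjusted p was 0.0156. However, tlr21 passed the filter on low counts through the siblings alone. Had the siblings been as low as the mutants, it would not have been tested. UNC93B1, which carries these receptors to endosomes, was 2.67-fold lower (edgeR adjusted p = 0.00705), and the cathepsin gene ctsl.1 was 2.44-fold lower. The adaptor gene ticam1 rose 3.07-fold, and its edgeR adjusted p was 0.175 without ddx41 mutant replicate 4. When sibling replicate 1 was left out, 3 of the list were called, all lower, and ticam1 (0.0540) and ctsl.1 (0.0525) were not among them. These receptors are also used by macrophages, whose markers had 9 of 33 tested IDs lower and 1 higher (30.3% called). The part of macrophages in this list was not tested.

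The other interferon regulatory factors and their binding proteins were tested beside irf3 and IRF7. Of 12 tested genes, IRF5 alone was called, and it rose 2.80-fold from 4.62 ± 0.5002 CPM (SD, 4 siblings) to 12.9 ± 3.999 CPM (SD, 3 mutants; edgeR adjusted p = 0.00509). The share called was 8.33%, below the 16.6% of all tested genes. The median log2 fold change of the list was 0.10, and without sibling replicate 5 a second gene was called, lower. IRF8, a macrophage factor named after its values were seen, was at 12.5 ± 2.38 CPM in siblings (SD, n = 4) and 7.81 ± 3.03 CPM in mutants (SD, n = 3), with an edgeR adjusted p of 0.180.

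Among 16 tested genes of interferons, their receptors and JAK-STAT signalling, 2 rose and 1 fell (median log2 fold change 0.12). The share called, 18.8%, was near the 16.6% of all tested genes. TYK2, a kinase of the type I interferon receptor, rose 3.28-fold, from 9.22 ± 1.75 to 30.3 ± 12.2 CPM, and STAT3 rose 1.67-fold, from 33.4 ± 5.396 to 55.8 ± 3.39 CPM. The kinase gene jak2a, which also serves the erythropoietin receptor, was 2.08-fold lower. STAT3 did not pass without sibling replicate 1 (edgeR adjusted p = 0.05001) or 3 (0.0560). The genes of the interferon-stimulated transcription complex did not pass: stat2 was at 18.2 ± 5.66 and 20.0 ± 5.74 CPM and irf9 at 12.8 ± 3.66 and 13.4 ± 1.24 CPM among siblings (SD, n = 4) and mutants (SD, n = 3). Both were named after their values were seen.

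Interferon-stimulated genes, which lie downstream of the members, were in part close to the limit of detection. Of 49 matched IDs, 23 did not pass the filter on low counts, and of the 26 tested, 4 rose and 2 fell (median log2 fold change -0.23), or 23.1% called against 16.6% of all tested genes. The exonuclease gene isg20 was the most abundant of the 4, at 37.2 ± 2.82 CPM in siblings (SD, n = 4) and 123.1 ± 20.3 CPM in mutants (SD, n = 3; edgeR adjusted p = 1.89e-05). The gene parp10 rose 2.14-fold, ftr83 3.43-fold and ifi44f1 3.43-fold, the latter from 1.73 ± 0.660 to 5.94 ± 0.310 CPM. The guanylate-binding protein genes gbp1 and gbp2, named after their values were seen, were 3.52-fold and 5.39-fold lower. No gene of the list was called lower with any 1 of 3 libraries left out (sibling replicate 1, ddx41 mutant replicates 2 and 4) or by limma-voom. With ddx41 mutant replicate 4 left out, 3 genes were called higher, and ftr83 did not pass (edgeR adjusted p = 0.110).

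STING and MAVS also feed NF-kB, and of 24 tested genes of that arm 1 rose and 3 fell (median log2 fold change -0.19). The share called, 16.7%, was near the 16.6% of all tested genes. CHUK, the gene of a kinase that releases NF-kB, stood at 26.7 ± 5.33 CPM in siblings and 65.1 ± 6.83 CPM in mutants, a 2.44-fold rise (edgeR adjusted p = 0.000764). The cytokine genes il1b and tnfb were 2.07-fold and 2.39-fold lower, and nfkbiaa, an inhibitor that NF-kB itself induces, was 1.95-fold lower with groups that overlapped. The edgeR adjusted p of nfkbiaa was 0.0452, and it did not pass under total-count scaling (0.0878) or limma-voom (0.0589). It was also lost without any 1 of 5 libraries, sibling replicates 1 and 3 and ddx41 mutant replicates 2, 3 and 4 (0.0612 to 0.148). Likewise tnfb was lost without sibling replicate 1 (0.0860) or ddx41 mutant replicate 3 (0.0729). With sibling replicate 1 left out, 2 of the list were called.

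**Figure D5:**
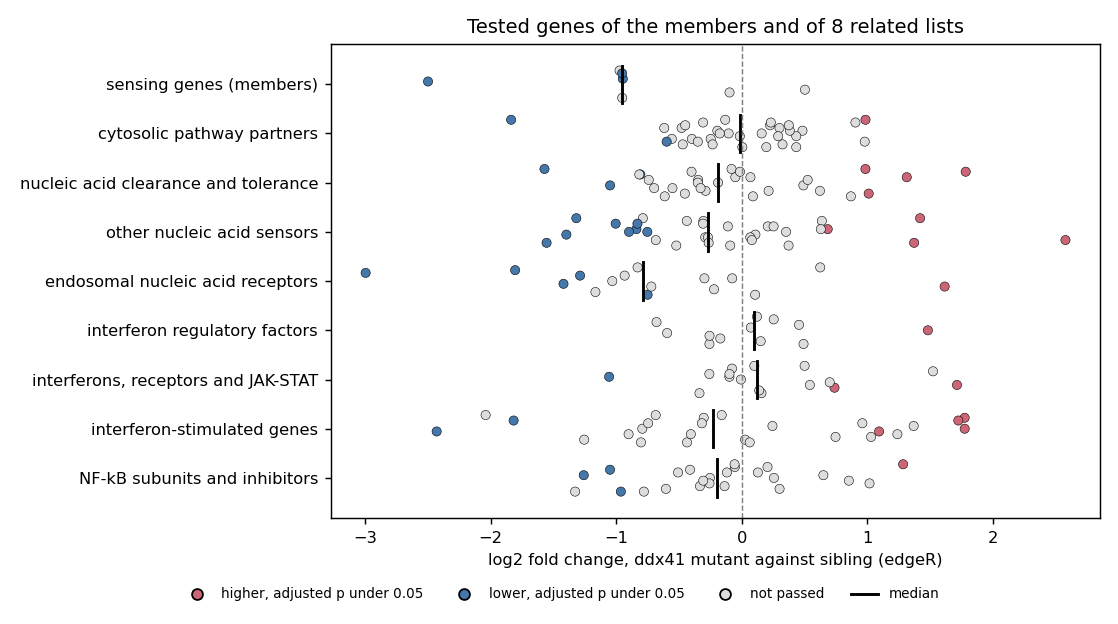
Log2 fold change (horizontal axis, mutant against sibling, edgeR) of each tested sensing gene and of the tested genes of 8 related lists (rows). Points are genes, coloured where the adjusted p was under 0.05, and their height within a row has no meaning; vertical marks are medians. The sensing genes and the endosomal receptors have medians of -0.95 and -0.79, and the other 7 lists have medians between -0.27 and 0.12.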

How the data were processed

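Gata1-positive cells of 7 libraries were compared, 4 sibling and 3 ddx41 mutant. The authors deposited raw counts per Ensembl gene for 32105 genes, with 0 columns of other samples. The submitters' processing notes list build GRCz10 and the tools STAR 2.4.2a, Cufflinks 2.2.1, Trim Galore, Picard and DESeq2, without roles. Which program counted, and whether by strand, is not given in the sources used here; reads of overlapping or antisense genes cannot be told apart. A table of IDs and names gave 26269 symbols. Of 436 list symbols, 78 had no ID, and some matched after a paralog suffix was dropped.

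Genes were kept by filterByExpr of edgeR 4.0.16, under R 4.3.3 (minimum count 10, total 15), which left 18565. Libraries were scaled by TMM and compared with the quasi-likelihood F-test, Benjamini-Hochberg adjusted at 0.05. Standard errors were taken from the fold change and the F statistic. Intervals are at 95%. No library was a repeat of another: within groups, chi-square divided by its degrees of freedom was 16.0 to 57.9. The self-test ran on simulated data. Alternatives were other scalings and filters, DESeq2 1.42.0, limma-voom (limma 3.58.1), each library left out and a replicate block. Transcript lengths were not used here, so the words more or most abundant refer to CPM and not to levels per length.

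Members and lists were chosen by pathway, with earlier results of these data known. The text names all members, up to 4 called genes with the smallest p per pathway list, and for markers the most abundant and the smallest p. Others are said to have been named after their values were seen.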

Additional observations from a re-analysis of the deposited data

Results flagged for a closer look

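In 67 sets of 4 sibling values, 7 had a highest or lowest library whose gap to its neighbour, divided by the whole range, exceeded Dixon's 95% critical value. Chance flags about 1 in 20 such sets where values are normally distributed. The sets are not independent, since GFI1B is part of the thrombocyte sum and stab1 is part of the endothelial sum. The 7 flags are therefore not 7 separate observations. None of the 8 members was among them. Sibling replicate 4 stood apart for TAX1BP1 (0.838 of the range, with 5.22 CPM against 7.29 in the nearest library), for STAT3 (0.906, 41.5 against 31.1 CPM), for GFI1B (0.908, 574.9 against 457.9 CPM) and for the thrombocyte marker sum (0.833, 1079 against 885.4 CPM). Sibling replicate 5 stood apart for lyz (0.966, 1344 against 2378 CPM), for stab1 (0.897, 41.9 against 33.8 CPM) and for the endothelial marker sum (0.897, 114.0 against 80.7 CPM).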

How the results depend on the processing

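TBK1, IRF7 and DHX58 remained lower with an adjusted p under 0.05 under 3 other scalings, 2 other filters and DESeq2; DHX58 missed it under limma-voom (log2 fold change -2.51, adjusted p = 0.0583). Under total counts the median of all genes was 0.12 against 0.04. With each library left out, the log2 fold change ranged from -1.09 to -0.78 for TBK1, from -1.17 to -0.74 for IRF7, from -2.83 to -2.11 for DHX58 and, in the 5 of 7 such fits where it passed the filter, from -1.40 to 0.39 for STING1, which gave no value without sibling replicate 1 or 5 or under the filter of 1 CPM in 3 libraries. STING1 also turned to 0.14 with the replicate block and was 0.15 without ddx41 mutant replicate 4. Over the same fits 1888 (without ddx41 mutant replicate 2) to 2835 genes were called, against 3073 with all libraries. The called members of the lists ranged from 0 to 2 (partners), 3 to 7 (clearance), 7 to 11 (other sensors), 3 to 6 (endosomal), 1 to 2 (regulatory factors), 3 to 6 (interferon-stimulated) and 2 to 5 (NF-kB). Without a filter, 5 genes of the JAK-STAT list were called.

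Replicates 3 and 4 occur in both groups, but same-numbered libraries did not deviate together (r = -0.02 and -0.18), so the numbers are not taken to pair them. The highest correlations across groups joined sibling replicate 3 with ddx41 mutant replicate 2 (r = 0.20), 4 with 3 (0.23) and 5 with 4 (0.27). The replicate block joins libraries by number, and a fit that joins those other pairs was not run. Replicates 1, 2 and 5 each occur in 1 group, so with the block the contrast comes from replicates 3 and 4 alone. With the replicate block, which leaves 1 residual degree of freedom, 1023 genes were called, and the log2 fold changes were -1.07 for TBK1 (adjusted p = 0.167), -1.07 for IRF7 (0.184) and -1.87 for DHX58 (0.366). With the block no interferon-stimulated gene was called lower, and 1 partner, 3 clearance, 6 other sensor, 1 endosomal and 1 NF-kB gene were called. The cause of these changes was not tested. Depth limits CGAS and STING1 most, at 48 and 58 counts in all.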

Other observations

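The zebrafish type I interferon genes and ifng1 did not pass the filter on low counts. The type I interferon genes ifnphi1 and ifnphi3 had 28 and 45 counts over all libraries, ifnphi2 had 11 and ifnphi4 had 4. The type II interferon gene ifng1 had 0 counts in each of the 4 siblings and 8, 15 and 4 counts in ddx41 mutant replicates 2, 3 and 4, and it passed edgeR's test without the filter (adjusted p = 0.0139). That fit called 3278 of 27648 genes. Of the list genes below the filter, ifng1 alone was called in it, and with 0 counts in every sibling it could only rise. The ubiquitin-like modifier gene isg15 had 1, 0, 3 and 1 counts in sibling replicates 1, 3, 4 and 5 and 6, 13 and 19 counts in the mutants, with an adjusted p of 0.0934 in the same fit. The proteasome gene PSMB9 had counts in sibling replicates 3 and 5 alone (5 and 14), with an adjusted p of 0.106. These genes were named after their values were seen.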
